A study of Mus musculus with 6 samples.

Results

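The 30 genes described here make cholesterol, sense it, store it, or move it into and out of the cell. They were picked by gene name from the 55487 genes of the deposited table, with earlier results of these data known, and all 30 were found there. RNA sequencing had been carried out on LSKs, the lineage-negative, Sca-1-positive and c-Kit-positive bone marrow fraction in which blood stem cells and early progenitors are found, after irradiation of the mice. There were 3 libraries from wild-type littermates (Tespa1+/+) and 3 from Tespa1-null mice (Tespa1-/-), so the comparison asks how the transcripts of irradiated LSKs differ when Tespa1 is missing. The Tespa1-/- mice were of the strain B6.129S-Tespa1tm1Smoc, backcrossed to C57BL/6, and carried the deletion in every cell of the body, not in blood cells alone. The study's mice were male and 8 to 10 weeks old, and its methods give a dose of 5 Gy to the whole body and LSKs collected for sequencing on day 13, although the labels of these libraries state neither. Both groups were irradiated, and no library of unirradiated LSKs was analysed here. Nothing states if a replicate came from 1 mouse or several, so the p-values below measure the spread between these libraries, which may be partly technical.

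Cholesterol synthesis starts with the mevalonate pathway, which joins acetyl-CoA units into farnesyl diphosphate, and ends with the sterol arm, which makes squalene, closes its rings and trims lanosterol to cholesterol. When sterols in the endoplasmic reticulum run low, SCAP escorts the SREBP transcription factors to the Golgi, where cleavage releases a factor that turns on most synthesis genes, whereas INSIG proteins hold SCAP back when sterols are plentiful. The liver X receptors (LXRs) bind oxysterols and turn on genes for cholesterol export, and in mouse bone marrow the exporters ABCA1 and ABCG1 are known to restrain the proliferation of stem and progenitor cells.

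Stretches of 5 promoters are printed first, 3 from genes of the mevalonate pathway that were higher in Tespa1-/- LSKs and 2 from genes that were lower. Sequences and gene starts are those of RefSeq on GRCm38.p6, each stretch ends 1 base before the annotated start and reads 5′ to 3′ on the strand of the gene. Capitals mark, on either strand, the sterol regulatory element TCACNCCAC, the CCAAT box, the E-box CACGTG and the LXR element DR4, searched as GGTNA and GGTCA with any 5 bases between them. In the stretches of Mvk and Mvd only CCAAT boxes are marked. The 5 are not a sample of the 30 genes. They hold every match to the sterol regulatory element and to DR4 that was found. For Srebf1 the start printed is the 1 of 3 with a DR4 match. Pmvk, called higher, and Mylip, called lower, held neither element and are not printed. The printed set therefore does not show how letters and direction of change go together. The stretches are, in this order, chr13:119690201-119690350 on the plus strand, chr5:114444119-114444268 on the plus strand, chr8:122443423-122443572 on the minus strand, chr4:53159896-53160045 on the minus strand and chr11:60210472-60210671 on the minus strand.
Hmgcs1: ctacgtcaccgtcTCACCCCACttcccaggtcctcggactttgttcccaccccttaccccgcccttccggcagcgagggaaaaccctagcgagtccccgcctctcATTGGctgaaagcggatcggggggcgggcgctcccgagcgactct
Mvk: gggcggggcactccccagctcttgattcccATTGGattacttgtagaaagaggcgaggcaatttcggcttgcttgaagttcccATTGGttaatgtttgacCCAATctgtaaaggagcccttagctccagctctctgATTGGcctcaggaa
Mvd: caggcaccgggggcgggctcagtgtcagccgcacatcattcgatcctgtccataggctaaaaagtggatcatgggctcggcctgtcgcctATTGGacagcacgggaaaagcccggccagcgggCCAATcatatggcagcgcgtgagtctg
Abca1: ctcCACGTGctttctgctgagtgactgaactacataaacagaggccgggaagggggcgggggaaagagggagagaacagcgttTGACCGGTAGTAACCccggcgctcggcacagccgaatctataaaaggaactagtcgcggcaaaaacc
Srebf1: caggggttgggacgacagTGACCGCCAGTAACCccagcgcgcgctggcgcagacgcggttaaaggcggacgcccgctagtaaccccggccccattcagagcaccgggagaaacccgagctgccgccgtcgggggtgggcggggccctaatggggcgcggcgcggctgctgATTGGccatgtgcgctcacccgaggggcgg

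A promoter entry of RefSeq was matched for 25 of the 30 genes, with 34 starts among them, and the 250 bases before each start were searched. The sterol regulatory element was found in 1 of the 25, Hmgcs1, beginning 137 bases before its start, against 1.22% of all 27025 genes with an entry. The DR4 letters were found in Abca1, 67 bases before its start, and in Srebf1, 182 bases before 1 of its 3 starts, against 0.189% of all genes. The CCAAT box was in 20 of the 25 and in 14 of the 15 synthesis enzymes with an entry, the exception being Acat2, against 37.5% of all genes. The GC box GGGCGG was in 21 of the 25 against 35.4% of all genes, and the E-box in 6 of the 25 against 6.86%. The marked matches do not overlap each other in the printed stretches, and a match is a description of letters only.

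Of the 30 genes, 5 were called higher in Tespa1-/- LSKs and 4 were called lower, where a call needed a fold past 1.5 and an adjusted p under 0.05 in edgeR's quasi-likelihood test over 15332 genes. The genes called higher were Pmvk, Mvd, Fdps, Insig2 and Nr1h3, and those called lower were Stard4, Mylip, Abca1 and Abcg1. Among all genes tested, 14.0% were called higher and 19.2% lower, so the shares of the 30 lie near the background. Scaling by total counts in place of TMM factors gave 3 called higher and 5 called lower. Without the fold cutoff 9 rose and 11 fell, against 31.5% and 31.8% of all genes, and 10 did not pass. The 3 libraries of one group did not overlap those of the other in 22 of the 30 genes, against 69.1% of all genes. The median log2 fold change of the 30 was -0.03, close to the -3e-04 of all genes tested, and their values ran from -2.83 to 0.96. The genes did not move together, and the description therefore goes by role.

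**Figure D1:**
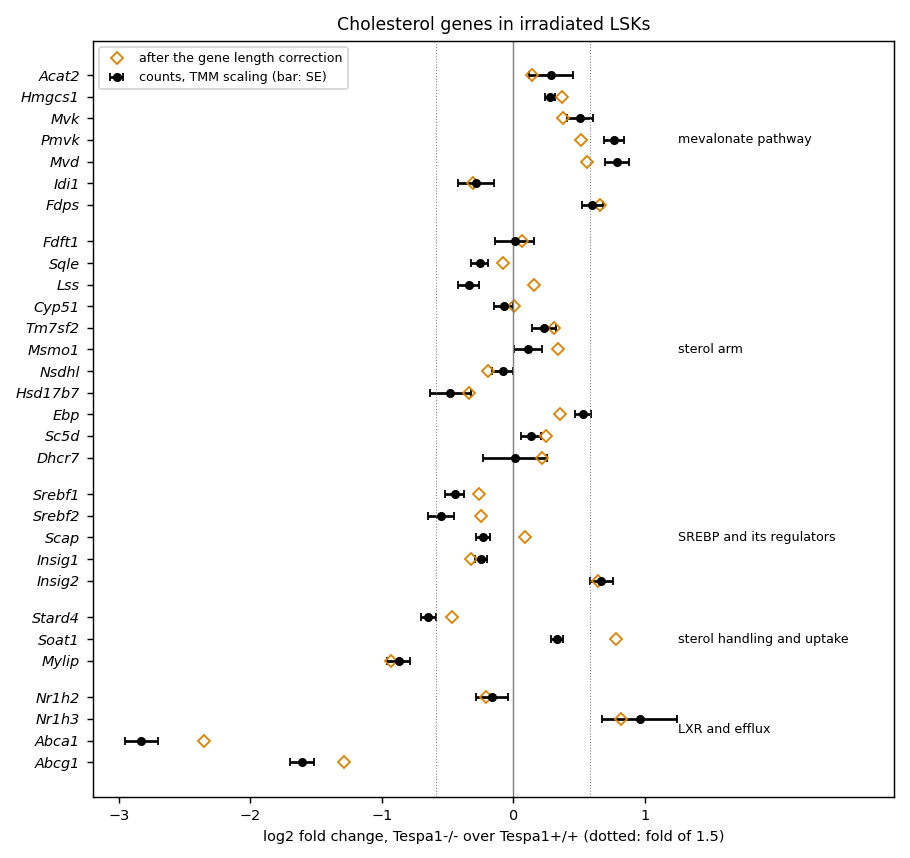
Each line is 1 gene, grouped by role; the x axis is the log2 fold change of Tespa1-/- over Tespa1+/+ LSKs, black points with bars are the estimate and its standard error from the counts of 3 libraries a group, and open diamonds are the same value after the gene length correction. Abca1 and Abcg1 lie farthest to the left at -2.83 and -1.61, and Pmvk and Mvd lie to the right at 0.77 and 0.79.

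Export genes showed the largest differences among the 30. Abca1, which encodes the transporter that loads cholesterol onto lipid-poor apolipoprotein A-I, lies on chr4:53030787-53159895 (GRCm38, minus strand), and its level in the 3 Tespa1+/+ libraries was 14.5, 15.7 and 13.4 CPM (normalised read count, that is, the count relative to a common library total scaled with TMM factors). In the 3 Tespa1-/- libraries it was 2.29, 1.93 and 1.86 CPM. Every Tespa1-/- library was thus far below every Tespa1+/+ library, and the raw counts were 263, 495 and 198 against 39, 28 and 23. On the log2 scale the difference was -2.83 (SE 0.13, edgeR adjusted p = 2.98e-06), a level 7.11-fold lower.

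Abcg1, which exports cholesterol to high-density lipoprotein particles, lies on chr17:31057675-31117988 (plus strand). It was at 40.9, 40.2 and 43.8 CPM in Tespa1+/+ LSKs and at 14.97, 11.9 and 14.0 CPM in Tespa1-/- LSKs, again without overlap. It fell by 1.61 on the log2 scale (SE 0.093, edgeR adjusted p = 8.44e-06), or 3.04-fold. The 2 exporters did not fall by the same factor, since the ratio of Abca1 to Abcg1, both as CPM per kilobase of exon, was 0.250, 0.275 and 0.215 in Tespa1+/+ libraries and 0.108, 0.114 and 0.0931 in Tespa1-/- libraries.

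**Figure D2:**
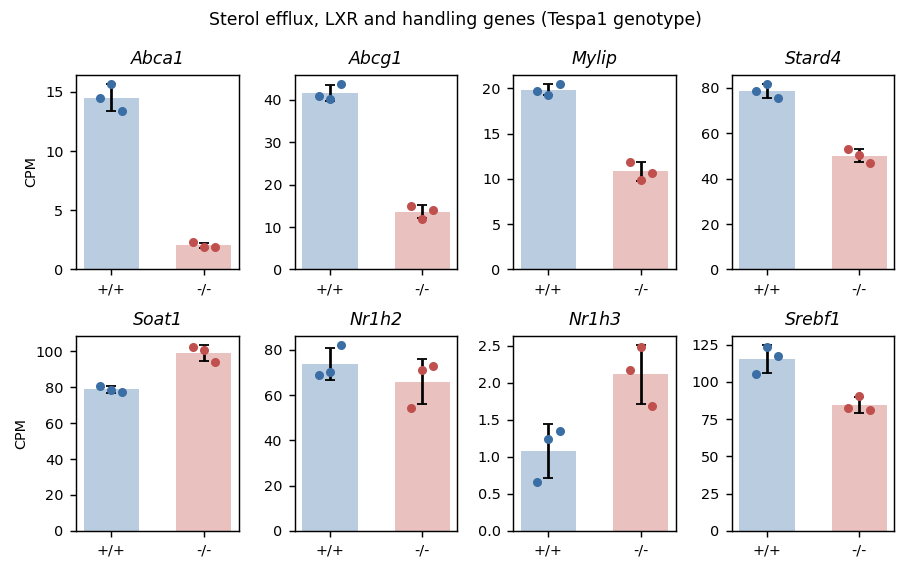
Level in CPM (y axis, linear, from 0) of 8 genes of cholesterol export, LXR signalling and handling in the Tespa1+/+ and Tespa1-/- libraries; points are the 3 libraries of a group, bars their mean and whiskers the SD. Abca1, Abcg1, Mylip, Stard4 and Srebf1 are lower and Soat1 and Nr1h3 higher in every Tespa1-/- library, while the groups overlap for Nr1h2.

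The receptors above these exporters behaved differently from each other. Nr1h2, which encodes LXRβ and was the more abundant, was at 68.9, 70.3 and 82.2 CPM in Tespa1+/+ LSKs and 54.4, 71.0 and 72.8 CPM in Tespa1-/- LSKs, so the groups overlapped and the log2 fold change of -0.16 (SE 0.12) did not pass (edgeR adjusted p = 0.282). The annotation holds a processed pseudogene copy of this gene, Nr1h2-ps, with which reads may be shared. Nr1h3, which encodes LXRα, was near the bottom of the range with 12, 39 and 20 counts against 37, 36 and 21. Scaled for depth these are 0.661, 1.24 and 1.35 CPM against 2.17, 2.48 and 1.69 CPM, which do not overlap. It rose by 0.96 on the log2 scale (SE 0.28, edgeR adjusted p = 0.0203), but it did not pass in 7 of the 18 alternatives that gave a value, among them DESeq2 (adjusted p = 0.0606), the fit without Tespa1-/- replicate 1 (edgeR adjusted p = 0.0566) and that without Tespa1-/- replicate 2 (edgeR adjusted p = 0.0685).

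Mylip encodes the ubiquitin ligase IDOL, which marks lipoprotein receptors for degradation and so limits cholesterol uptake. Its level was 19.8, 19.3 and 20.5 CPM in Tespa1+/+ LSKs and 11.9, 9.92 and 10.7 CPM in Tespa1-/- LSKs. It fell by 0.87 on the log2 scale (SE 0.088, edgeR adjusted p = 0.000120), and after the length correction described below by 0.93. Abca1, Abcg1, Mylip and Srebf1 are all known targets of LXR, and all 4 fell. The grouping was made after their values were seen and is read here only as a description. Of the further LXR targets and oxysterol enzymes counted below, 4 of the 7 tested fell and 3 did not pass. Among all genes 31.8% fell. Among the 3 that did not pass were Lpcat3 at 0.12 (SE 0.050, edgeR adjusted p = 0.0707) and Smpdl3a at -0.07 (SE 0.058, edgeR adjusted p = 0.346).

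Handling of cholesterol inside the cell showed changes in both directions. Stard4, whose product carries sterol between membranes, was at 78.6, 81.7 and 75.3 CPM in Tespa1+/+ LSKs and at 52.8, 50.6 and 47.0 CPM in Tespa1-/- LSKs. It fell by 0.65 on the log2 scale (SE 0.057, edgeR adjusted p = 6.16e-05). Soat1, which encodes the acyltransferase that esterifies cholesterol for storage, was at 80.9, 78.4 and 77.2 CPM against 102.4, 100.8 and 94.0 CPM and rose by 0.33 (SE 0.046, edgeR adjusted p = 0.000569), under the fold cutoff. The libraries of the 2 genotypes did not overlap for either gene.

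Of the SREBP machinery, 4 of 5 genes fell and 1 rose, against 31.8% and 31.5% of all genes. Srebf2, which encodes the SREBP that mainly drives cholesterol synthesis, was at 203.9, 227 and 266.4 CPM in Tespa1+/+ LSKs and at 161.2, 167.5 and 146.9 CPM in Tespa1-/- LSKs, a log2 difference of -0.55 (SE 0.098, edgeR adjusted p = 0.00209). Srebf1, which encodes the SREBP better known for fatty acid synthesis, was at 104.9, 123.2 and 117.6 CPM against 82.1, 90.7 and 80.9 CPM and fell by 0.45 (SE 0.072, edgeR adjusted p = 0.00129). Both genes were lower in every Tespa1-/- library, by less than the 1.5-fold cutoff. Scap, the escort of both proteins, was at 177.9, 200 and 187.5 CPM against 156.4, 168.6 and 156.1 CPM, a log2 difference of -0.23 (SE 0.053, edgeR adjusted p = 0.00678) that turned to 0.09 (adjusted p = 0.201) after the length correction. Of its exon bases, 13.2% are shared with the antisense gene 5830462I19Rik.

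The INSIG genes went opposite ways. Insig1, itself a known SREBP target, was at 50.8, 49.6 and 48.8 CPM in Tespa1+/+ LSKs and at 42.8, 41.6 and 41.7 CPM in Tespa1-/- LSKs, and fell by 0.24 on the log2 scale (SE 0.045, edgeR adjusted p = 0.00252). Insig2 was at 7.43, 6.81 and 7.22 CPM against 11.2, 11.1 and 11.9 CPM and rose by 0.67 (SE 0.087, edgeR adjusted p = 0.000409). Insig1 remained the more abundant transcript in both genotypes. Per kilobase of exon it exceeded Insig2 7.67-, 8.18- and 7.59-fold in wild-type LSKs but 4.31-, 4.21- and 3.95-fold in Tespa1-/- LSKs, so the ratio was lower in every Tespa1-/- library.

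**Figure D3:**
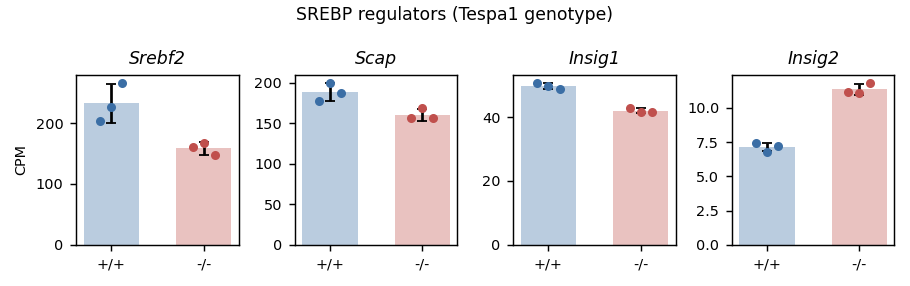
Level in CPM (y axis, linear, from 0) of Srebf2, Scap, Insig1 and Insig2 in each of the 3 Tespa1+/+ and 3 Tespa1-/- libraries; bars are means and whiskers SDs. Srebf2, Scap and Insig1 are lower and Insig2 is higher in every Tespa1-/- library.

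In the mevalonate pathway 5 of 7 genes rose and none fell, with a median log2 fold change of 0.51. Among all genes 31.5% rose and 31.8% fell. The summed level of the 7 was 234.3, 254.5 and 237.5 CPM in Tespa1+/+ libraries and 329.2, 296.8 and 319.8 CPM in Tespa1-/- libraries, a ratio of 1.30 between the means. Pmvk and Mvd, the kinase and the decarboxylase that turn phosphomevalonate into isopentenyl diphosphate, rose most before the length correction. With that correction, described below, Fdps stood highest of the 7 at 0.66, beside Mvd at 0.56 and Pmvk at 0.52. Pmvk was at 16.4, 17.9 and 16.1 CPM against 28.0, 30.7 and 27.3 CPM, a log2 difference of 0.77 (SE 0.076, edgeR adjusted p = 0.000108). Mvd was at 11.95, 14.5 and 12.6 CPM against 22.8, 23.4 and 21.6 CPM, a log2 difference of 0.79 (SE 0.091, edgeR adjusted p = 0.000226). In both, the lowest Tespa1-/- library was well above the highest Tespa1+/+ library.

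Fdps, the synthase that yields farnesyl diphosphate at the branch to sterols and to prenylated proteins, was at 59.3, 57.6 and 63.6 CPM in Tespa1+/+ LSKs and at 92.4, 81.4 and 100.2 CPM in Tespa1-/- LSKs. It rose by 0.60 on the log2 scale (SE 0.080, edgeR adjusted p = 0.000475), a fold of 1.52 that lies just past the cutoff, and 26.7% of its exon bases are shared with Gm43738 on the same strand. Mvk, mevalonate kinase, rose by 0.51 (SE 0.098, edgeR adjusted p = 0.00305), from 13.5 to 15.7 CPM over the Tespa1+/+ libraries and 19.1 to 22.8 CPM over the Tespa1-/- libraries. Hmgcs1, the synthase whose promoter held the sterol regulatory element, rose less, by 0.28 (SE 0.039, edgeR adjusted p = 0.000613), with 61.1, 60.2 and 59.8 CPM against 75.3, 72.1 and 72.3 CPM.

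The remaining genes of the pathway did not pass. Acat2, the thiolase that joins acetyl-CoA units, stood at 0.29 on the log2 scale (SE 0.17, edgeR adjusted p = 0.169), and its Tespa1-/- libraries at 53.6, 36.9 and 49.8 CPM overlapped the Tespa1+/+ libraries at 35.5, 45.5 and 33.5 CPM. Without Tespa1-/- replicate 2, its lowest in that group, it stood at 0.44 and passed (edgeR adjusted p = 0.0325). Idi1, the isomerase between Mvd and Fdps, had the opposite sign at -0.28 (SE 0.14, edgeR adjusted p = 0.114), with 36.5, 43.1 and 37.7 CPM against 38.0, 32.4 and 25.8 CPM. It passed without Tespa1-/- replicate 1, at -0.42 (edgeR adjusted p = 0.0259), and with total counts, at -0.38 (adjusted p = 0.0440).

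**Figure D4:**
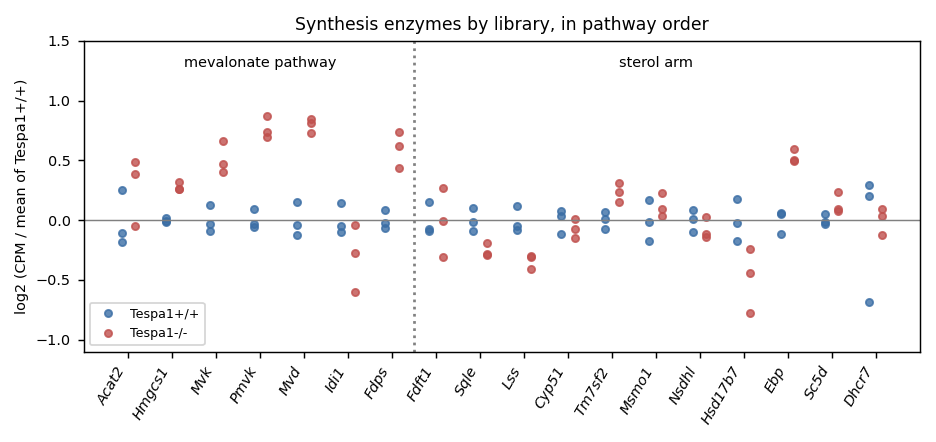
The 18 synthesis enzymes in pathway order; the y axis is the log2 ratio of the level in 1 library to the mean of the 3 Tespa1+/+ libraries, and each point is 1 library. Pmvk and Mvd stand highest on the mevalonate side, while Ebp is the one sterol arm gene whose Tespa1-/- libraries are all near 0.5, and Dhcr7 has 1 low Tespa1+/+ library.

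Of the 11 genes of the sterol arm 1 rose, 3 fell and 7 did not pass, and the median log2 fold change was 0.01. Among all genes 31.5% rose and 31.8% fell. The summed level of the 11 was 275.5, 254.8 and 259.6 CPM in Tespa1+/+ libraries and 272.3, 268.2 and 274.7 CPM in Tespa1-/- libraries. After the length correction 4 of the 11 passed higher and none lower, with a median of 0.16. In the mevalonate pathway 5 of 7 passed higher and none lower. Among all genes 29.8% passed higher and 26.4% lower under that fit. The difference between the arms was not tested. Ebp, the isomerase that shifts a double bond in the sterol ring, was the gene that rose, by 0.53 on the log2 scale (SE 0.062, edgeR adjusted p = 0.000244), from 48.9, 48.7 and 43.4 CPM to 66.4, 71.1 and 66.2 CPM. In Tespa1-/- LSKs it was the most abundant of the 30 per length.

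The genes that fell were Sqle, Lss and Hsd17b7. Sqle, the squalene epoxidase, was at 45.0, 41.6 and 39.3 CPM against 36.7, 34.2 and 34.5 CPM, a log2 difference of -0.26 (SE 0.066, edgeR adjusted p = 0.0119). Lss, the cyclase that forms lanosterol, was at 20.1, 19.6 and 22.5 CPM against 15.6, 16.7 and 16.9 CPM, a log2 difference of -0.34 (SE 0.080, edgeR adjusted p = 0.00814). After the length correction neither passed, Sqle at -0.07 (adjusted p = 0.380) and Lss, the gene with the longest exons of the 30, at 0.16 (adjusted p = 0.137). Hsd17b7, a sterol ketoreductase, was at 10.1, 8.80 and 7.96 CPM against 6.58, 5.24 and 7.58 CPM and fell by 0.48 (SE 0.16, edgeR adjusted p = 0.0319), but no longer passed in 11 of 20 alternatives, with the length correction among them (adjusted p = 0.108). Leaving out replicate 1 or replicate 2 of either genotype was also enough, with edgeR adjusted p-values from 0.0693 to 0.0967.

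Among the genes that did not pass, Tm7sf2, a sterol reductase, and Sc5d, a sterol desaturase, had libraries that did not overlap. Tm7sf2 was at 8.04, 7.28 and 7.76 CPM against 9.51, 8.54 and 9.03 CPM (log2 fold change 0.24, SE 0.093, edgeR adjusted p = 0.0597), and 12.1% of its exon bases are shared with Vps51 on the same strand. Sc5d was at 15.6, 14.8 and 14.9 CPM against 16.1, 17.7 and 15.9 CPM (log2 fold change 0.14, SE 0.076, edgeR adjusted p = 0.156). Both passed after the length correction, at 0.31 (adjusted p = 0.0250) and 0.25 (adjusted p = 0.0242), as did Msmo1, the methylsterol monooxygenase, which went from 0.11 (adjusted p = 0.394) to 0.34 (adjusted p = 0.0312).

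For Fdft1, squalene synthase, the log2 fold change was 0.01 (SE 0.15, edgeR adjusted p = 0.960) and 18.3% of its exon bases are shared with Ctsb on the opposite strand. Cyp51, the lanosterol demethylase, stood at -0.07 (SE 0.071, edgeR adjusted p = 0.403), and Nsdhl, a sterol dehydrogenase, at -0.08 (SE 0.079, edgeR adjusted p = 0.403). Dhcr7, the reductase that turns its dehydro precursor into cholesterol, had 1 library apart from the rest. Its Tespa1+/+ libraries were at 39.5, 19.98 and 37.0 CPM and its Tespa1-/- libraries at 29.5, 33.0 and 34.3 CPM, so that the log2 fold change was 0.01 (SE 0.24, edgeR adjusted p = 0.966) with Tespa1+/+ replicate 2 and -0.24 (edgeR adjusted p = 0.0548) without it.

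Levels were compared between genes only per length, as CPM per kilobase of exon in GENCODE M21. In Tespa1+/+ LSKs the highest was Srebf2 at 32.4 ± 4.40 (SD, n = 3), followed by Scap at 25.3 ± 1.48 and Nr1h2 at 22.0 ± 2.17, the last pair overlapping across libraries. In Tespa1-/- LSKs the highest was Ebp at 29.4 ± 1.20, followed by Srebf2 at 22.1 ± 1.47, Fdps at 21.7 ± 2.24 and Scap at 21.6 ± 0.953, which overlapped each other. The lowest in Tespa1+/+ LSKs were Abca1 at 1.40 ± 0.112 and Nr1h3 at 0.430 ± 0.147. In Tespa1-/- LSKs their order was the reverse, with Nr1h3 at 0.841 ± 0.158 and Abca1 at 0.195 ± 0.0225, without overlap in either genotype. The order depends on the length used: by the deposited FPKM, which divides by longer lengths, Scap (21.9) stood above Srebf2 (20.5) in Tespa1+/+ LSKs and Abca1 was rank 26 and not 29. Between the genotypes, by CPM per kilobase, Abcg1 was at rank 19 in Tespa1+/+ and rank 26 in Tespa1-/- LSKs, and Mvd at ranks 17 and 11. By FPKM these ranks were 18 and 23 for Abcg1 and 14 and 6 for Mvd.

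**Figure D5:**
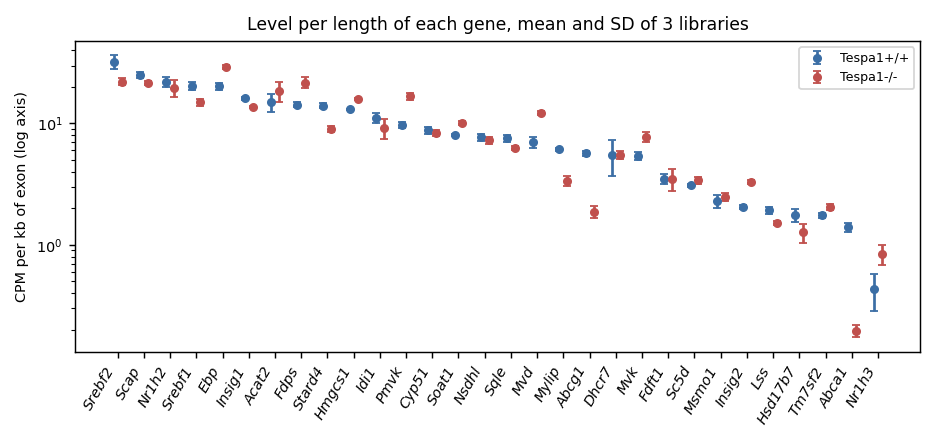
Level per length of the 30 genes (y axis, log scale, CPM per kilobase of exon) in the order of the Tespa1+/+ means; points are means of 3 libraries and whiskers SDs. The levels run from 32.4 (Srebf2) to 0.430 (Nr1h3) in Tespa1+/+ LSKs, and the widest gap between the genotypes is that of Abca1.

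Other genes of these pathways were counted on 5 lists that share no gene with the 30, and the counts are to be read beside the 31.5% of all genes that rose and the 31.8% that fell. Of 15 fatty acid synthesis genes 14 were tested, 2 rose and 8 fell, and the median on the log2 scale was -0.43, or -0.22 with the same counts once length was corrected for. Examples were Fads2, a fatty acid desaturase, at -0.96 (SE 0.037, edgeR adjusted p = 1.97e-06) and Acaca, acetyl-CoA carboxylase, at -0.88, which shrank to -0.20 after the length correction. Of 15 genes of the isoprenoid branches, which use the products of the mevalonate pathway, 7 rose and 1 fell (median 0.13), the latter being Icmt, a methyltransferase of prenylated proteins, at -1.14.

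Of 12 genes for SREBP cleavage and sterol-regulated degradation 1 rose and 4 fell (median 0.02), which became 4 higher and 2 lower after the length correction (median 0.08). Examples were Rnf145, a sterol-responsive ubiquitin ligase, at -0.97 and Mbtps2, the site-2 protease that releases SREBP, at -0.79. Of 17 sterol transport genes 2 rose and 9 fell (median -0.26), which became 5 and 5 after the length correction (median 0.07). Examples were Gramd1b at -1.17 and Osbpl5 at -0.79, which both encode sterol or lipid carriers between membranes. Of 10 further LXR targets and oxysterol enzymes 7 were tested, none rose and 4 fell (median -0.33), among them Arl4c, a known LXR target, at -1.47 with 52.9, 54.8 and 55.8 CPM against 19.3, 18.5 and 21.1 CPM. The medians are to be read beside the -3e-04 of all genes, and the genes named are those with the largest changes among called genes with a mean count of at least 100.

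Gene length moved with genotype in these libraries. Over 10029 genes with a log2 CPM above 3, the log2 fold change fell with exon length (Spearman's rho -0.62, a description across genes of the same 6 libraries). Exon lengths of the 30 ran from 1713 to 10787 bases with a median of 4409, against 3663.5 for all genes tested. When the trend with length was removed within each library, 12 of the 30 passed higher and 6 lower, against 29.8% and 26.4% of all genes under that fit. By the fold cutoff 4 were called higher (Fdps, Insig2, Soat1 and Nr1h3) and 3 lower (Mylip, Abca1 and Abcg1), against 8.18% and 15.3% of all genes, and Nr1h3 no longer passed once the replicate block was added (adjusted p = 0.0621). Pmvk at 0.52, Mvd at 0.56 and Stard4 at -0.46 still passed the test but no longer the fold cutoff, while Soat1 went from 0.33 to 0.78. Abca1 then stood at -2.35 and Abcg1 at -1.29, still with the lowest values of the 30. Srebf1 stood at -0.26 (adjusted p = 0.0190), whereas Srebf2 at -0.24 (adjusted p = 0.0722) no longer passed. No synthesis enzyme passed lower after the correction and 9 of the 18 passed higher. The part of the length trend in the uncorrected differences was not otherwise tested.

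The libraries also differed in markers of maturing cells. The summed level of 10 secondary granule and neutrophil genes was 21.8 to 24.1 CPM in Tespa1+/+ and 488 to 516.5 CPM in Tespa1-/- libraries, all 10 being called higher and none being at 0 in a whole group. The 6 genes of the LSK sort summed to 1125 to 1166 CPM against 620.2 to 640.2 CPM, 5 being called lower, and Kit, which defines the sort, was present in all libraries. The summed levels of 10 monocyte and macrophage genes were 498.8 to 539.2 against 637 to 722.9 CPM, of 9 erythroid genes 218.5 to 242 against 381.7 to 409.8 CPM, and of 12 proliferation genes 3590 to 3619 against 3346 to 3416 CPM. Members of these lists went both ways. Of the 7 erythroid genes tested 5 rose, Tfrc making up most of the sum, and Klf1 and Epor fell, while of the proliferation genes 6 rose, among them Plk1 and Rrm2, and 3 fell, among them the abundant Mki67, with a median log2 fold change of 0.22. Of the 6 monocyte and macrophage genes tested 2 rose and 2 fell. Primary granule genes, 5 tested, summed to 10910 to 11640 against 17960 to 18770 CPM, and all 5 rose. The 7 B cell and plasma cell genes summed to 157.2 to 181 against 248.3 to 256.5 CPM, 3 rising and 2 falling of 6 tested. The 6 megakaryocyte genes summed to 106.8 to 113.7 against 66.9 to 71.4 CPM, 3 falling of 5 tested. The 6 T cell genes summed to 3.31 to 3.58 against 1.53 to 1.69 CPM. Among all genes 31.5% rose and 31.8% fell. The part of these markers in the differences of the 30 genes was not tested, and in bulk libraries fewer cells of a type and less RNA per cell cannot be told apart. Tespa1 itself was at 32.7 to 36.0 CPM in Tespa1+/+ and at 14.2 to 15.3 CPM in Tespa1-/- libraries (log2 fold change -1.23, edgeR adjusted p = 7.00e-06), lower in all 3 but not absent. The total count of a library ranged from 12856630 to 30576981.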

How the data were processed

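The authors deposited 1 table that holds a raw count and an FPKM value per gene and library, from poly-A stranded paired-end libraries. The submitters' processing notes name CASAVA 1.8, HISAT2, StringTie, edgeR and the build GRCm38. The counting step and whether it used strand are not given in the sources used here. The deposited FPKM equals the count per library total and per 1 fixed length per gene, which is longer than the exon union for all 30 genes, so it was used only in alternatives.

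Groups and replicate numbers came from the sample titles. After filterByExpr, counts scaled by TMM were compared over all 6 libraries in edgeR 4.0.16 (quasi-likelihood F-test, two-sided, no covariates; R 4.3.3), with Benjamini-Hochberg adjustment over 15332 genes. All 30 genes passed the filter. "Called" means a fold past 1.5 with an adjusted p under 0.05, and "rose" or "fell" an adjusted p under 0.05. Alternatives used limma 3.58.1 and DESeq2 1.42.0. The length correction removed a loess trend of log2 CPM on exon length within each library. The fit was tested on simulated data. Depth was 12856630 to 30576981 counts. Without molecular identifiers, copies of 1 molecule cannot be told from separate molecules. The fit estimated the spread between libraries beyond counting error.

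All 30 genes are named, and on each further list the 2 with the largest change among those called with a mean count of at least 100 and no overlap between groups. Lpcat3 and Smpdl3a, which did not pass, are named besides. Genes and lists were chosen with earlier results of these data known. RefSeq promoter entries for 5 of the genes were not analysed here. Pathway genes outside the 30 and the 5 further lists were not analysed either. No per-sample column was left unused.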

Additional observations from a re-analysis of the deposited data

How the results depend on the processing

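Abca1, Abcg1, Mylip, Pmvk and Mvd kept their direction and an adjusted p under the threshold in use in all 20 alternatives, and Nsdhl and Nr1h2 kept theirs without passing in any. This does not cover the fold cutoff, which Pmvk and Mvd missed after the length correction and Pmvk also on log2(FPKM + 1). Against 5 genes called higher, total counts without factors, which shift the median of all genes to -0.10, gave 3, edgeR's test against a fold of 1.5 gave 2, and limma on log2(FPKM + 1), on log2(FPKM + 0.1) and on log2(FPKM + 1) without a filter gave 1, 2 and 1. The length correction with the replicate block gave 3. The test against a fold of 1.5 left 5 of 20 genes passing, by its construction. With the FPKM filter, Nr1h3 and Tm7sf2 gave no value. Leaving out 1 library gave 4 to 5 genes called higher, 4 to 5 called lower and 19 to 20 passing.

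Signs turned in genes near 0 or with long exons. Fdft1 was at -0.091 with total counts, -0.012 with at least 10 counts in every sample, -0.0083 with the replicate block, and -0.0745, -0.107 and -0.0745 in the 3 limma fits, and Dhcr7 at -0.0876, -0.0099, -0.04, -0.0375 and -0.04 under the same settings other than the block. Leaving out 1 library moved Fdft1 over -0.145 to 0.152 and Dhcr7 over -0.240 to 0.198. Under the length correction, without and with the block, Lss was at 0.16 and 0.16, Cyp51 at 0.0042 and 0.0045, and Scap at 0.0921 and 0.0935. The cause was not tested. Same-numbered libraries correlated at 0.05, 0.01 and 0.06, too weakly to be treated as pairs, although each library correlated best with its own number. The replicate block left 5 called higher, 4 lower and 19 passing, the gene lost being Hsd17b7 (edgeR adjusted p = 0.0515).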
